A study of Mus musculus with 3 samples.

Results

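The interferon-induced GTPases described here are 9 mouse genes in 2 families. Gbp2, Gbp3, Gbp4, Gbp5 and Gbp7 encode guanylate-binding proteins (GBPs), and Irgm1, Irgm2, Igtp and Iigp1 encode immunity-related GTPases (IRGs). They were found by their symbols and are 9 of the 31053 genes in the count table, and all 9 were detected. The data are single-cell RNA sequencing of dissociated mouse brain. The study prepared 1 library each from control mice, mice with ischemic stroke (middle cerebral artery occlusion) and mice with hemorrhagic stroke (collagenase injection into the brain), with 8 mice pooled per library. The sample labels give the strain as C56BL6 and the age as 10 weeks for all of them, and the time between stroke and dissociation was not given for these libraries in the sources used here. In the deposited table the libraries are told apart by a suffix of 1, 2 or 3 on each cell barcode, and no source used here pairs a suffix with a condition. The conditions were therefore not compared. Each library is named by its suffix below, and differences between suffixes are differences between 3 libraries with no replicates, so no p-value is given.

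Both families are large GTPases that most cells hold at a low level until interferon signaling switches the genes on. Signaling by interferon-gamma acts at DNA elements called GAS, and signaling by type I interferons acts at interferon-stimulated response elements (ISREs). IRF1 also binds ISREs and is itself an interferon target. The proteins are known for cell-autonomous defence. GBPs assemble on bacteria and on vacuoles that hold parasites, and help to break them open and to feed inflammasomes. Effector IRGs such as Iigp1 load onto such vacuoles, and the regulators Irgm1, Irgm2 and Igtp (also called Irgm3) keep the effectors off the membranes of the cell itself. In the brain, microglia, astrocytes and endothelial cells are all known to induce these genes when interferon is present.

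Upstream sequence is shown because the members are known as interferon targets. Upstream windows from RefSeq (GRCm38.p6, 250 bases before each transcription start) were given for 7 of the 9 members, in 8 windows since Gbp3 had a pair of starts. The ISRE core (GAAA, any 2 bases, GAAA), searched on both strands, was in the windows of 7 of these 7 members, against 2.98% of all 32851 windows of the same length. The upstream start of Gbp3 had it and the downstream start did not. The palindromic GAS motif TTCNNNGAA was in 4 of the 7 members (Gbp5, Gbp7, Igtp and Irgm2), against 7.02% of all windows. Both motifs were in the windows of those 4 members and in 0.332% of all windows. A match is a description of the letters and does not show that a factor binds there. The 30 bases around each ISRE core are given on the strand of the gene, with the ISRE core in capitals, and also the GAS motif where it fell in the same 30 bases. In the 4 Gbp genes the core is read as its reverse complement (TTTC, any 2 bases, TTTC).
Gbp5, chr3:142496759-142496788 (+): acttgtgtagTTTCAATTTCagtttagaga
Gbp7, chr3:142530273-142530302 (+): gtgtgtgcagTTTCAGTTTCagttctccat
Gbp3, chr3:142559992-142560021 (+): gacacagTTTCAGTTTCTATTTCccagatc
Gbp2, chr3:142620594-142620623 (+): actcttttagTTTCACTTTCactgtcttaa
Irgm1, chr11:48871428-48871457 (-): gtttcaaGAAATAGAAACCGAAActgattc
Igtp, chr11:58199506-58199535 (+): gccatTTCTAGGAActGAAACTGAAAgctg
Irgm2, chr11:58214897-58214926 (+): gccatTTCCAGGAActGAAACTGAAAgctg

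In Gbp3 and Irgm1 the capitals are 2 overlapping cores. The nearest cores to the start were those of Irgm1, at 30 and 24 bases before it, and the farthest was that of Gbp5, at 165 bases. Igtp and Irgm2 had a GAS motif and an ISRE core with the same spacing, and 29 of their 30 printed bases were identical. Gbp2, Gbp3, Gbp5 and Gbp7 lie in 1 cluster on chromosome 3, between 142493978 and 142638008 (GRCm38). Gbp4 lies on chromosome 5 (105115767-105139586), Irgm1 on chromosome 11 (48861968-48871683), Igtp and Irgm2 side by side on chromosome 11 (58199556-58207591 and 58199618-58222782) and Iigp1 on chromosome 18. The annotated Irgm2 model overlaps Igtp on the same strand, that of Gbp4 overlaps Gbp8 and Gbp9, and that of Gbp7 overlaps Gm43802. These are overlaps of whole gene spans. Whether exons overlap was not examined, so the effect on the counts is not known. Of the 91-base words in the last 500 bases of its transcripts, Gbp4 shared 5.96% with Gbp6, Gbp9, Gbp11 or another gene model, Gbp3 shared 0.313% with Gbp7, and the other 7 members shared none.

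The values are counts of unique molecular identifiers (UMIs), which count captured RNA molecules. Barcodes with at least 1000 UMIs and at most 30% mitochondrial UMIs were kept, 31982 of 35968 (8969, 13769 and 9244 in the libraries of suffix 1, 2 and 3), with a median of 6389, 5801 and 6287.5 UMIs. A barcode entered a class when it had UMIs of at least 3 markers of that class and at least 5 marker UMIs in all. This left 26524 barcodes with 1 class, 3062 that passed more than 1 gate and were set aside as mixed, and 2396 with none. The mixed share was 15.2% in the library of suffix 3 against 7.01% and 7.48% in the others. Classes are called by their markers with "-like", and 11 of 17 had 50 or more barcodes in at least 1 library, which gave 23 groups of a class and a library. Class sizes differed widely between libraries: endothelium-like barcodes numbered 2, 13 and 821, T cell-like 751, 1239 and 20, and microglia-like 3333, 5788 and 1911, in the order of the suffixes. Endothelium-like and mural cell-like cells can thus be described only in the library of suffix 3, and their class and that library cannot be told apart. Libraries 1 and 2 shared 43 barcode sequences, 1 and 3 shared 24, and 2 and 3 shared 43.

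The GTPase UMIs came mainly from microglia-like cells, but the highest levels did not. Of 33529 UMIs of the 9 genes in kept barcodes, microglia-like barcodes held 53.8%, mixed barcodes 18.4%, T cell-like 9.17%, endothelium-like 6.83% and oligodendrocyte-like 3.82%. Set against their share of barcodes, endothelium-like cells (2.61% of barcodes) held more than their part and oligodendrocyte-like cells (28.4%) far less. Levels are given in CPM, the UMIs of a gene over all UMIs of a group, summed over its barcodes and scaled to parts per 1000000, with the Poisson 95% interval, which covers counting error only and is too narrow where a few barcodes hold most UMIs. The sum of the 9 genes was 395 CPM (351 to 443) in neutrophil-like cells of suffix 1, 353 (339 to 368) in endothelium-like cells of suffix 3, 336 (322 to 351) in T cell-like cells of suffix 2 and 303 (266 to 344) in oligodendrocyte precursor-like cells of suffix 2. It was 157, 204 and 176 CPM in microglia-like cells of suffix 1, 2 and 3, 203 in T cell-like cells of suffix 1 and 185 in NK cell-like cells of suffix 1. All other groups were under 100 CPM, from 83.5 in oligodendrocyte precursor-like cells of suffix 1 to 5.0 in oligodendrocyte-like cells of suffix 3. Of the 22 pairs of neighbours in this order, 18 had intervals that overlapped, so that the order is resolved into a few tiers rather than 23 steps.

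**Figure D1:**
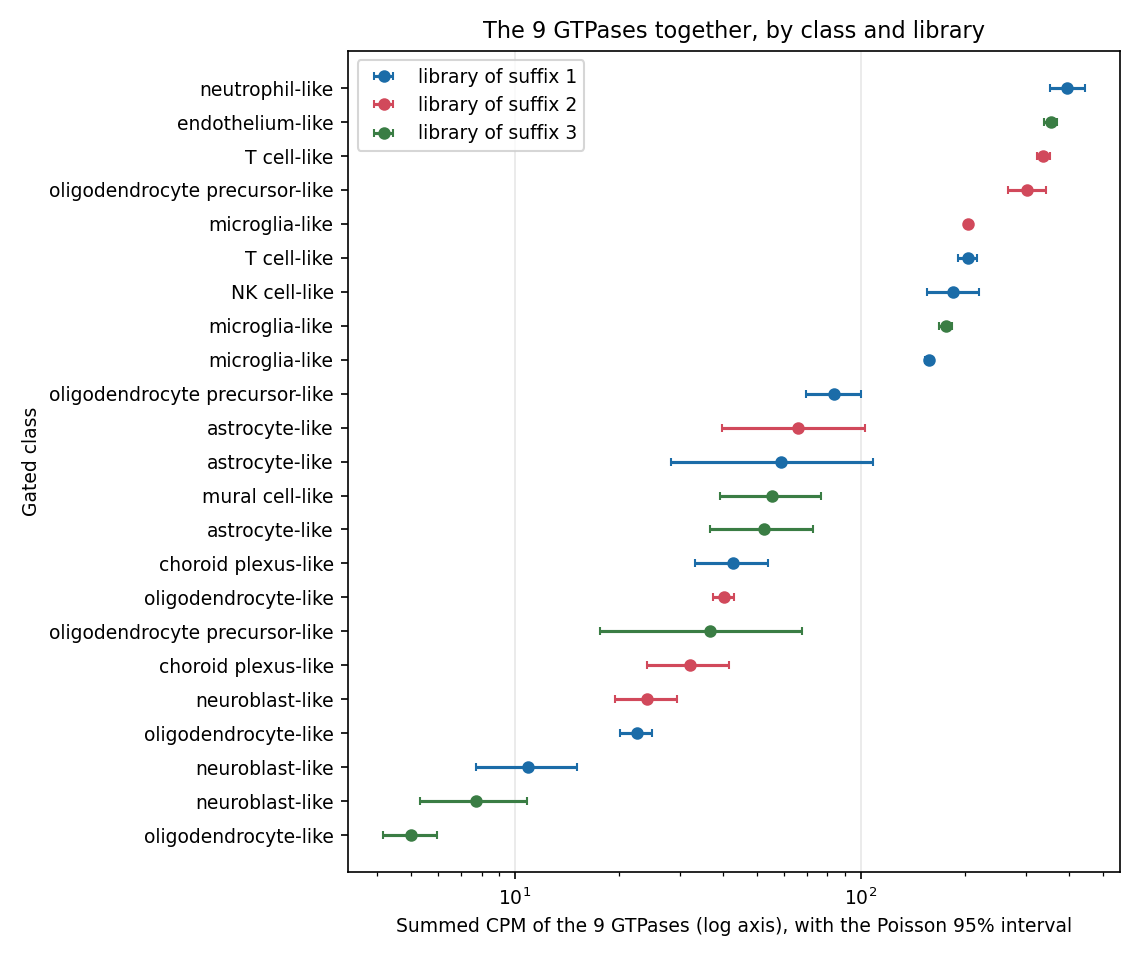
Summed level of the 9 GTPases in each of the 23 groups of a marker-gated class and a library, in CPM on a log axis, with points colored by library suffix and bars for the Poisson 95% interval. Neutrophil-like, endothelium-like, T cell-like and microglia-like cells lie at the top, with the oligodendrocyte precursor-like cells of suffix 2 among them at 303 CPM, and oligodendrocyte-like cells of suffix 3 lie last at 5.0 CPM.

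The 9 genes did not share 1 pattern over the classes. Gbp2, a GBP with broad activity in macrophages, stood at 198 CPM (167 to 233) in neutrophil-like cells of suffix 1, followed by 54.8 in endothelium-like cells. In microglia-like cells it was at 23.7, 33.5 and 17.7 CPM in suffix 1, 2 and 3, and in the 3 oligodendrocyte-like groups at 0.710, 1.73 and 0.645. NK cell-like and mural cell-like cells had 9.74 and 8.98 CPM of Gbp2, from 7 and 6 UMIs. Gbp3 was highest in endothelium-like cells at 60.2 CPM (54.3 to 66.5), and lay between 14.7 and 34.2 CPM in microglia-like, T cell-like, NK cell-like and neutrophil-like cells and in the oligodendrocyte precursor-like cells of suffix 1 and 2. Gbp4 was found mainly in lymphoid and endothelial cells. It stood at 59.8 and 42.5 CPM in T cell-like cells of suffix 2 and 1, at 43.1 in NK cell-like cells and at 25.2 in endothelium-like cells, and the next group, neutrophil-like cells, had 6.83 from 5 UMIs. Microglia-like cells had 0.923, 2.36 and 0.410 CPM of Gbp4.

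Gbp5, known to promote assembly of the NLRP3 inflammasome, was high in microglia-like cells, where Gbp4 was low. Microglia-like cells held it at 50.5, 60.3 and 40.7 CPM in suffix 1, 2 and 3, the highest of all groups except that NK cell-like cells at 43.1 (29.3 to 61.2) overlapped them. T cell-like cells were at 14.4 and 16.3 CPM and endothelium-like cells at 22.6. The oligodendrocyte-like, neuroblast-like, astrocyte-like, mural cell-like, choroid plexus-like and oligodendrocyte precursor-like groups all lay at or below 6.33 CPM of Gbp5. Gbp7 was found in all 23 groups. It was at 78.9 CPM (72.0 to 86.3) in T cell-like cells of suffix 2, 74.3 in endothelium-like cells and 69.7 (52.5 to 90.7) in oligodendrocyte precursor-like cells of suffix 2, and these intervals overlapped. Astrocyte-like cells had 23.5, 20.8 and 17.4 CPM in suffix 1, 2 and 3, from only 4, 6 and 12 UMIs.

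**Figure D2:**
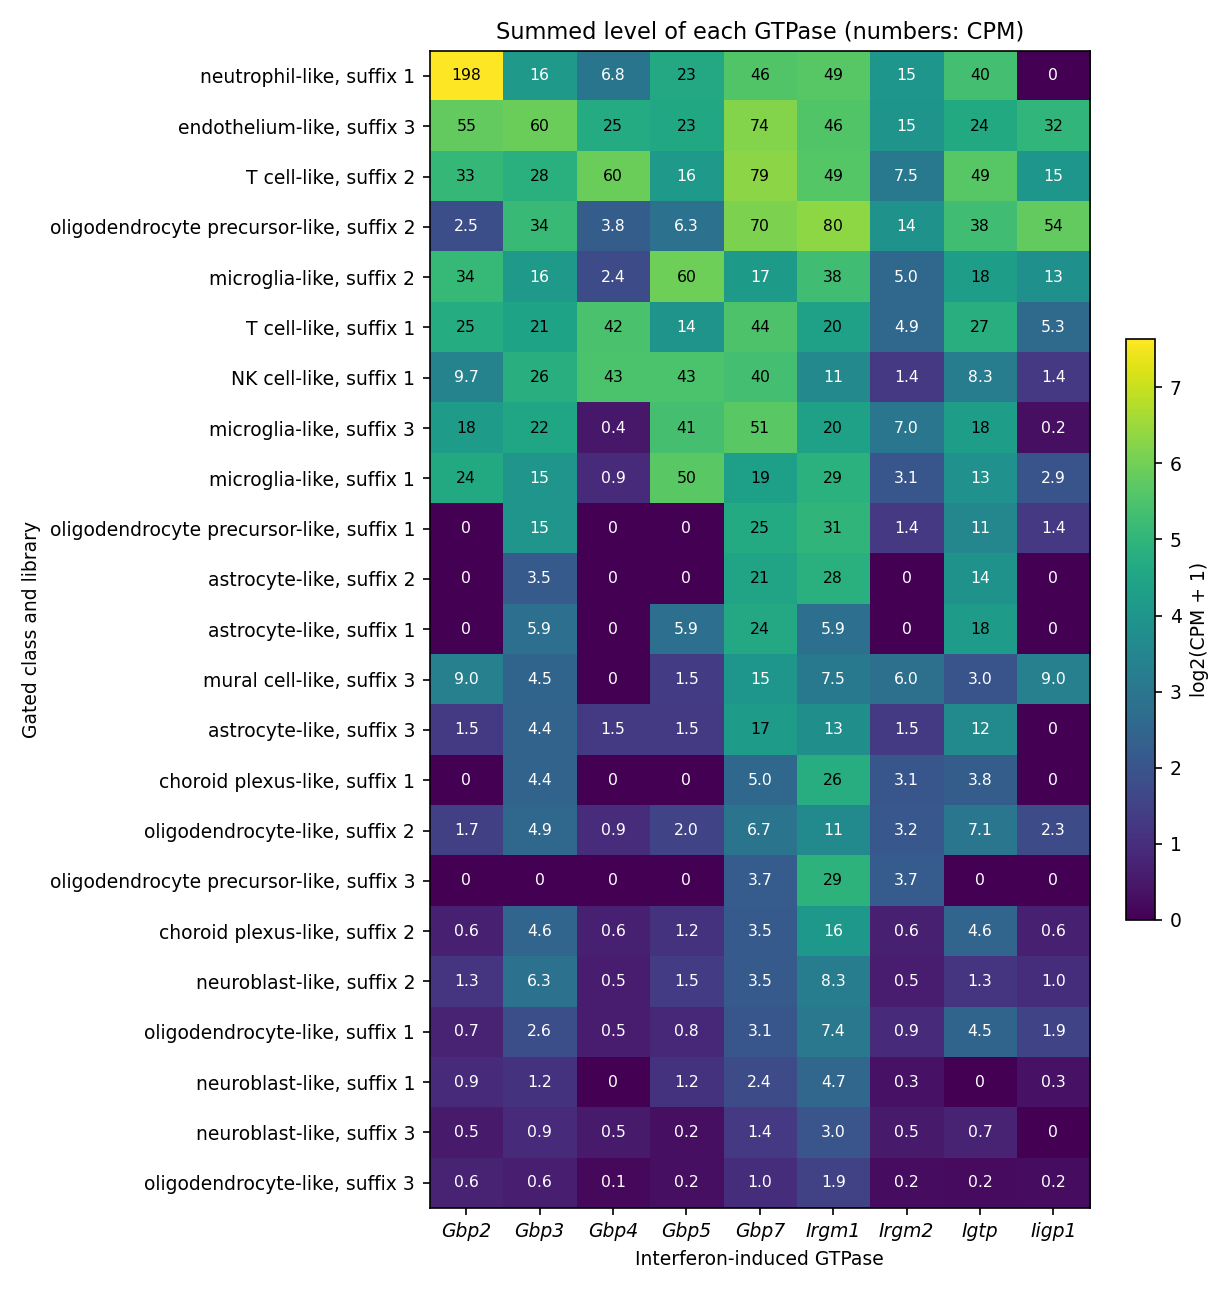
Summed level of each GTPase (columns) in each group of class and library (rows, ordered by the sum of the 9), with the number in each cell in CPM and the color on a log2(CPM + 1) scale. Gbp4 is bright in T cell-like, NK cell-like and endothelium-like rows, Gbp5 in microglia-like and NK cell-like rows, and Iigp1 in the rows of oligodendrocyte precursor-like cells of suffix 2 (54.5 CPM) and endothelium-like cells (31.7 CPM).

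Among the IRGs, Irgm1, a regulator of the other IRGs with a part in autophagy and mitochondrial upkeep, was also found in all 23 groups. Its levels ran from 79.8 CPM (61.3 to 102) in oligodendrocyte precursor-like cells of suffix 2 down to 1.86 in oligodendrocyte-like cells of suffix 3. It supplied 42 of the 68 GTPase UMIs of choroid plexus-like cells of suffix 1 (26.3 CPM) and 8 of the 10 of oligodendrocyte precursor-like cells of suffix 3. Irgm2, a regulator that resides at the Golgi, was low throughout, and its highest groups were neutrophil-like (15.0 CPM, 7.5 to 26.9), endothelium-like (14.6, 11.7 to 17.9) and oligodendrocyte precursor-like cells of suffix 2 (13.9, 6.96 to 24.9), which overlapped. Igtp was highest in T cell-like cells of suffix 2 at 48.8 CPM (43.5 to 54.7) and overlapped there with neutrophil-like cells at 39.6 and oligodendrocyte precursor-like cells of suffix 2 at 38.0. It was even over the microglia-like groups, at 13.5, 18.0 and 18.0 CPM.

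Iigp1, the effector that loads onto parasite vacuoles, was uneven. It stood at 54.5 CPM (39.4 to 73.4) in oligodendrocyte precursor-like cells of suffix 2, at 31.7 (27.4 to 36.4) in endothelium-like cells, at 15.2 in T cell-like cells of suffix 2 and at 13.3 in microglia-like cells of suffix 2. In microglia-like cells of suffix 1 it was at 2.93 and of suffix 3 at 0.246 CPM, from 3 UMIs in 1911 barcodes. Iigp1 was not seen in 7 groups, among them all 3 astrocyte-like groups and the 199 neutrophil-like barcodes of suffix 1. The interval of the neutrophil-like cells reached up to 5.04 CPM. Those of the astrocyte-like cells of suffix 1, 2 and 3 reached up to 21.7, 12.8 and 5.36 CPM. The astrocyte-like zeros of suffix 1 and 2 thus do not exclude a level near that of microglia-like cells of suffix 2.

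Read as ratios within a library, the classes separated as follows. A gene was tested where the mean of both groups was at least 10 CPM, and was called where the ratio of (CPM + 10) was at least 2. A gene near 0 CPM in 1 group reaches this filter only through the other group and is then always called, here and below. For such genes the call follows from the filter, and only the levels are a result. Microglia-like over oligodendrocyte-like cells, 4 of the 4 members tested were called higher in suffix 1 (16.1% of all genes tested were called higher), 3 of 6 in suffix 2 (15.8%) and 4 of 4 in suffix 3 (18.9%), and none was called lower (28.9%, 29.8% and 21.8%). The highest (CPM + 10) ratio was that of Gbp5 in suffix 1 and 2, at 5.58 and 5.87, and that of Gbp7 in suffix 3, at 5.50 against 4.95 for Gbp5. T cell-like over oligodendrocyte-like cells, 5 of 6 members were called higher in suffix 1 (15.6%) and 6 of 6 in suffix 2 (16%). The exception was Irgm1, at 19.5 against 7.36 CPM in suffix 1. Endothelium-like over oligodendrocyte-like cells in suffix 3, 8 of 8 members tested were called higher (19.3%), and the ninth, Irgm2, was below the level filter at 14.6 against 0.202 CPM. All 8 were at or below 1.86 CPM in oligodendrocyte-like cells, as were the 4 members called in microglia-like cells of suffix 3. These calls were fixed by the filter. The median log2 ratio of all 9 members, the untested Irgm2 included, was 2.03 for endothelium-like cells, and that of all genes tested was -0.05. The sets were not filtered alike, so no conclusion is drawn from this. Astrocyte-like over oligodendrocyte-like cells, 1 of 2 members was called higher in suffix 1 (24.9%), 0 of 3 in suffix 2 (21.3%), and none reached the filter in suffix 3 (17.3%). The called member was Gbp7, from 4 UMIs in 55 astrocyte-like barcodes.

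Endothelium-like cells held all 9 members, as did all microglia-like, T cell-like and oligodendrocyte-like groups. In the 821 endothelium-like barcodes of suffix 3 the 9 members stood at 14.6 to 74.3 CPM. At least 1 member was seen in 74.7% of these barcodes, 3 or more in 28.5% and 5 or more in 9.74%. In microglia-like barcodes of the same library these shares were 55.3%, 7.59% and 0.105%, at a median depth of 6306 UMIs. In oligodendrocyte-like and neuroblast-like barcodes of the same library, 2.47% and 4.64% had at least 1 member, at median depths of 6358 and 5230.5 UMIs against 5527. After every barcode was thinned to 1000 UMIs, the shares with at least 1 member were 26.2% in endothelium-like, 0.528% in oligodendrocyte-like, 0.619% in neuroblast-like and 13.9% in microglia-like cells of suffix 3. Those of T cell-like cells of suffix 2 and neutrophil-like cells of suffix 1 were 27.2% and 25.6%. Against microglia-like cells of the same library, 4 of 9 members were called higher (16.2% of all genes tested) and 0 of 9 lower (12.5%). The 4 were Gbp2 at 54.8 against 17.7 CPM, Gbp3 at 60.2 against 21.7, Gbp4 at 25.2 against 0.410 and Iigp1 at 31.7 against 0.246. Gbp4 and Iigp1 reached the level filter through endothelium-like cells alone, so their calls were fixed by it. In CPM alone Iigp1 was 129-fold higher (43.4 to 629) and Gbp4 61.4-fold higher (25.8 to 192). Gbp5 went the other way, with a CPM ratio of 0.556 (0.459 to 0.672), and Igtp was the least raised at 1.33 (1.07 to 1.64). Barcodes that passed the endothelial and mural gates together, 239 in all libraries, held the 9 genes at 315 CPM (297 to 333), whereas the 163 mural cell-like barcodes of suffix 3 were at 55.4. Where mixed barcodes were given to the gate with most marker UMIs, the mural value rose to 201 CPM.

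Within microglia-like cells the library of suffix 3 differed from the others in which members it held. Gbp7 was at 50.5 CPM (46.6 to 54.7) against 18.9 and 16.9 in suffix 1 and 2, and was the 1 member of 6 tested that was called higher, over suffix 1 (6.61% of all genes tested) and over suffix 2 (8.48%). Its (CPM + 10) ratio of 2.09 over suffix 1 was close to the limit, and the call was lost under 5 of the alternative settings. The call over suffix 2 was lost with 50 CPM added, with a fold of 3 and after thinning. A Gbp7 UMI was present in 23.5% of the microglia-like barcodes of suffix 3 (21.6 to 25.5) and in 12.2% and 10.6% of those of suffix 1 and 2, and after thinning in 4.13%, 2.25% and 1.99%. Gbp3 and Irgm2 were also above both other libraries in CPM, with ratios of 1.46 (1.25 to 1.70) and 2.25 (1.66 to 3.05) over suffix 1. Genes at large were higher there too: the median log2 ratio of (CPM + 10) over all genes tested was 0.357 over suffix 1 and 0.386 over suffix 2. The (CPM + 10) ratios of Gbp3 were 1.27 and 1.20 and those of Irgm2 1.30 and 1.13. A rise of this size was thus not particular to these members. Gbp2, Gbp4, Gbp5, Irgm1 and Iigp1 were below both other libraries in CPM, with ratios to suffix 2 of 0.529, 0.174, 0.675, 0.516 and 0.0185. Igtp was level with suffix 2 (0.998, 0.858 to 1.16). Gbp4 and Iigp1 rested on 5 and 3 UMIs in suffix 3, and the interval of the ratio of Gbp4 to suffix 1 included 1 (0.444, 0.134 to 1.17). No member was called lower in suffix 3 against suffix 1 (2.35%) or suffix 2 (2.76%). Iigp1 did not reach the level filter in either, and its (CPM + 10) ratio was 0.792 over suffix 1 and 0.439 over suffix 2. Between suffix 2 and suffix 1, 0 of 6 members were called in either direction (0.0653% of genes higher and 0.0653% lower), although the interval of Iigp1 at 13.3 CPM was far from that at 2.93.

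In T cell-like cells all 9 members were higher in suffix 2 than in suffix 1 in CPM, and the intervals of the ratio were above 1 for 7 of them. Gbp5 (1.13, 0.827 to 1.56) and Irgm2 (1.54, 0.921 to 2.64) were the exceptions. The ratios of the others ran from 1.31 for Gbp2 to 2.88 (1.84 to 4.63) for Iigp1, and Irgm1 stood at 48.7 against 19.5 CPM. None of 8 members tested reached a (CPM + 10) ratio of 2 (0.446% of all genes did, and 0.314% were called lower), Irgm1 with 1.99 coming nearest. Ifng, the gene of interferon-gamma, was at 818 CPM in suffix 2 and 383 in suffix 1 in these cells. In suffix 2, T cell-like barcodes with an Ifng UMI held the 9 GTPases at 348 CPM (330 to 366) against 312 (289 to 338) in those without. These intervals overlapped. In suffix 1 the values were 226 (208 to 245) and 177 (161 to 196). The barcodes with Ifng were the deeper ones, at a median of 4587 against 4161 UMIs in suffix 2 and 5901 against 5696 in suffix 1. The part of depth was not tested. T cell-like barcodes were also split by coreceptor UMIs. In suffix 2 the sum of the 9 was 322 CPM (305 to 340) with Cd8a or Cd8b1 and no Cd4. It was 392 (339 to 450) with Cd4 alone. In suffix 1 the values were 228 (210 to 248) and 185 (155 to 220). The intervals overlapped in both libraries, and the order was reversed between them. In suffix 2 the barcodes with Cd4 alone had Gbp2 at 63.0 CPM (43.1 to 89.0, 32 UMIs) against 29.3 (24.4 to 35.0). Igtp was at 70.9 (49.7 to 98.2, 36 UMIs) against 43.6 (37.5 to 50.4), with intervals that overlapped. In suffix 1 Gbp2 went the other way, at 12.9 CPM (5.91 to 24.5, 9 UMIs) against 31.4 (24.8 to 39.1), and Igtp was at 31.6 against 31.0.

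**Figure D3:**
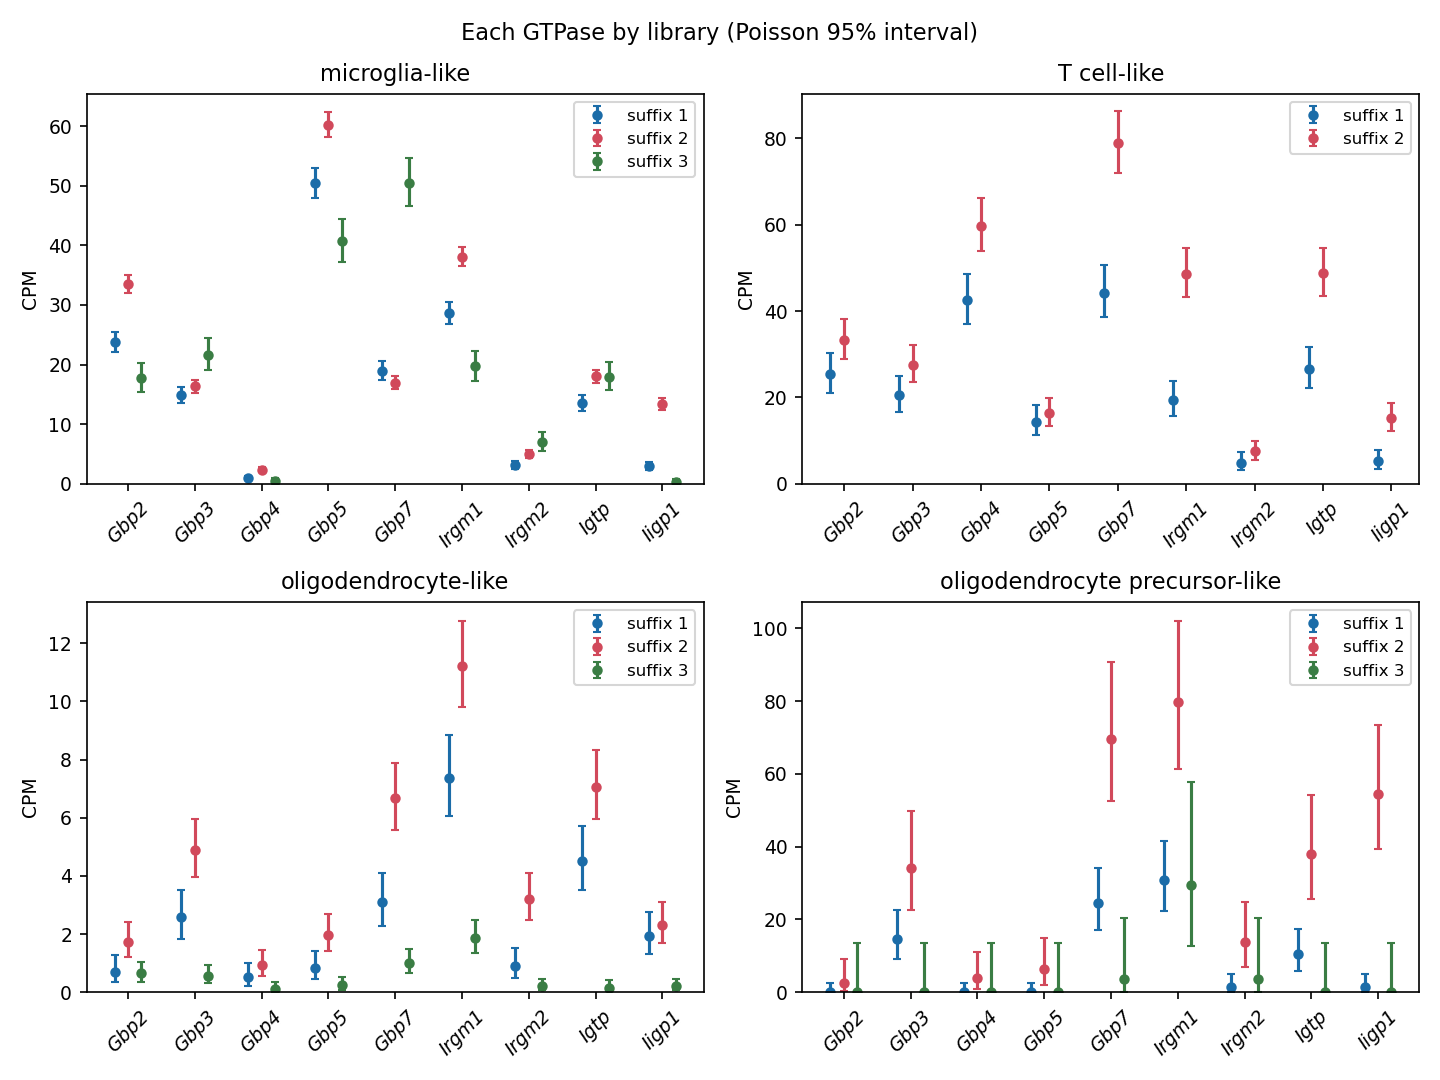
CPM of each GTPase in microglia-like, T cell-like, oligodendrocyte-like and oligodendrocyte precursor-like cells, with points colored by library suffix, bars for the Poisson 95% interval and a separate linear axis for each panel. Gbp7 of suffix 3 stands at 50.5 CPM above the other libraries in microglia-like cells, and all 9 members of suffix 2 lie above those of suffix 1 in T cell-like and oligodendrocyte-like cells.

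Oligodendrocyte-like cells had low levels, with that of suffix 3 the lowest of the 23 groups, and these also differed between libraries. In suffix 1 and 2 neuroblast-like cells were lower still, at 10.9 and 24.0 CPM. The sum of the 9 was 22.5, 40.0 and 5.0 CPM in suffix 1, 2 and 3, from 2099, 3376 and 3598 barcodes. No member reached the level filter in any pair of libraries, so none could be called (0.0812%, 0.298% and 0.338% of all genes were called higher in suffix 2 over 1, 3 over 1 and 3 over 2, and 0.0542%, 0.65% and 0.986% lower). All 9 members were lower in suffix 3 than in suffix 2 in CPM with intervals of the ratio below 1, from 0.0228 (0.00614 to 0.0597) for Igtp to 0.373 (0.193 to 0.692) for Gbp2. Oligodendrocyte precursor-like cells, 186, 133 and 56 barcodes, held the 9 at 83.5, 303 and 36.7 CPM. In suffix 2 over suffix 1, 4 of 5 members tested were called higher (0.568% of all genes tested) and none lower (0.257%): Gbp7, Irgm1, Igtp and Iigp1, with CPM ratios of 2.84, 2.58, 3.61 and 38.8 (10.1 to 331). Gbp3, the fifth, had 34.2 against 14.7 CPM. Iigp1 was at 1.40 CPM in suffix 1, so its call was fixed by the filter. The count of 4 fell to 1 under the stricter marker gate. In suffix 3 over suffix 2, 5 of 5 were called lower (3.28%) and none higher (4.8%), and in suffix 3 over suffix 1, 1 of 2 was called lower (2.76%) and none higher (5.24%), with only 10 GTPase UMIs in the 56 barcodes of suffix 3. Gbp3, Igtp and Iigp1 had 0 UMIs there, so their calls over suffix 2 were fixed by the filter. Gbp2, Gbp4 and Gbp5 had 0 UMIs in the precursor-like cells of suffix 1 and 3, and 2, 3 and 5 UMIs in those of suffix 2.

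These UMIs were held by few cells. In oligodendrocyte precursor-like cells of suffix 2, the 10 barcodes with 3 or more different members held 74.5% of all 239 GTPase UMIs and 42 of the 43 Iigp1 UMIs. Since these barcodes were chosen by the members, their high GTPase level is no result. The single highest barcode held 43 UMIs, and without it the group stood at 252 CPM. In oligodendrocyte-like cells of suffix 2, 40 of 3376 barcodes had 3 or more members and held 51.4% of the UMIs, and in suffix 1, 13 of 2099 held 44.3%. No oligodendrocyte-like barcode of suffix 3, of 3598, had 3 or more, which allows a share of such barcodes of up to 0.0834% (3 counts). The members found in these barcodes were mainly Gbp3, Gbp7, Irgm1, Igtp and Iigp1. Of the 178 UMIs in the 10 precursor-like barcodes, 40 were Irgm1, 36 Gbp7 and 26 Igtp, and 2 were Gbp2, 3 Gbp4 and 5 Gbp5.

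Markers of other classes were counted in the same barcodes. The 10 precursor-like barcodes had 1.10 microglial marker UMIs each against 0.862 in the other precursor-like barcodes of suffix 2, and no endothelial, T cell, neutrophil or mural marker UMI. The 40 oligodendrocyte-like barcodes of suffix 2 had 2.92 microglial marker UMIs each against 0.828, no endothelial marker UMI and 0.0250 T cell marker UMIs each against 0.0426, and the 13 of suffix 1 had 1.54 against 0.914 and 0.308 T cell marker UMIs each against 0.0321. Their median depths were 9402.5, 9761.5 and 8535 UMIs, against 5360, 5544 and 6799.5 in the rest. The part of depth and of microglial RNA in the result was not tested. Isg15 and B2m were high in the same barcodes, but not every interferon target was. Irf1 was at 44.8 against 31.4 CPM in the 10 precursor-like barcodes, although at 86.0 against 6.91 in the 40 oligodendrocyte-like barcodes of suffix 2. In the 10 precursor-like barcodes, Isg15 was at 1781 CPM against 81.4 and B2m, the light chain of MHC class I, at 1904 against 553. In the 40 oligodendrocyte-like barcodes of suffix 2, Isg15 was at 297 against 60.8 CPM and B2m at 1736 against 306.

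The members were found together in the same cells more in some classes than in others. With barcodes split by an Irgm1 UMI, the other 8 members stood at 300 CPM with and 13.6 without in oligodendrocyte-like cells of suffix 2, at 248 and 6.56 in those of suffix 1 and at 668 and 54.1 in precursor-like cells of suffix 2. In the precursor-like cells of suffix 1 they stood at 138 and 31.5. In microglia-like cells the split by Irgm1 was smaller than in these groups: 157 and 119 CPM in suffix 1, 238 and 131 in suffix 2 and 163 and 155 in suffix 3. In endothelium-like cells it was 415 and 256. Barcodes with a UMI were the deeper ones in each of these groups, for example 7483 against 5515 UMIs in oligodendrocyte-like cells of suffix 2 and 8410.5 against 5195 in endothelium-like cells. Iigp1 split T cell-like cells of suffix 2 at near-equal median depth (4459 and 4465.5 UMIs): the other 8 members stood at 847 CPM (760 to 940) in the 71 barcodes with Iigp1 and at 283 (269 to 297) in the 1168 without. In microglia-like cells of suffix 2 the values were 495 in 289 barcodes and 167 in the rest, at 12127 and 7660 UMIs. After thinning to 1000 UMIs, the variance of the GTPase count over its mean was 2.53 in precursor-like cells of suffix 2, 2.36 in neutrophil-like cells, 1.79 and 1.75 in oligodendrocyte-like cells of suffix 1 and 2, 1.40 in endothelium-like cells and between 1.12 and 1.31 in microglia-like cells, where 1 would be the value of even counting.

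**Figure D4:**
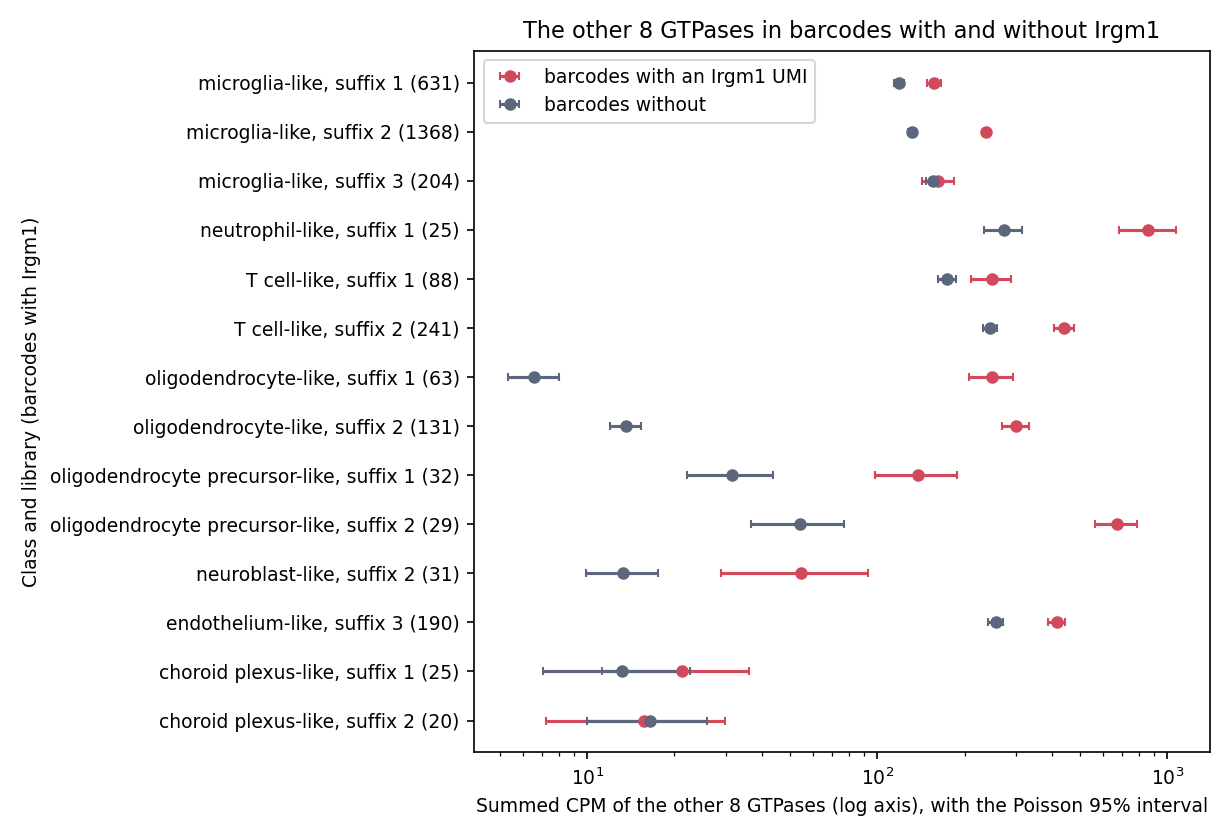
Summed CPM of the other 8 GTPases in barcodes with (red) and without (gray) an Irgm1 UMI, by class and library, on a log axis with the Poisson 95% interval and the number of barcodes with Irgm1 in brackets, for groups with at least 20 barcodes on each side. The points lie far apart in oligodendrocyte-like cells of suffix 1 and 2 (6.56 against 248 and 13.6 against 300 CPM) and overlap in microglia-like cells of suffix 3 and in choroid plexus-like cells.

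RNA from lysed microglia can enter other droplets, so the members were set against C1qa, a microglial complement gene. Oligodendrocyte-like barcodes carried 0.937, 1.16 and 0.259 C1qa UMIs each in suffix 1, 2 and 3, against 91.4, 106 and 58.5 in microglia-like ones. At the microglial ratio of GTPase to C1qa UMIs, this would bring 8.84%, 8.78% and 14.4% of the GTPase UMIs found in oligodendrocyte-like cells, 21.9%, 16.1% and 8.84% of those in neuroblast-like cells, 2.56%, 1.24% and 2.69% of those in precursor-like cells and 0.182% of those in endothelium-like cells. For Gbp5 in oligodendrocyte-like cells the amount carried would be 9.88 of 13 UMIs in suffix 1, 21.0 of 40 in suffix 2 and 4.14 of 6 in suffix 3. The same sum for Irgm1 was 5.6 of 114, 13.3 of 227 and 2.0 of 46. RNA carried from classes other than microglia was not computed. Oligodendrocyte-like barcodes of suffix 3 had 0.344 endothelial and 0.215 mural marker UMIs each. Those of suffix 1 and 2 with under 3 members had 0.00527 and 0.00869 endothelial marker UMIs each. The part of endothelial RNA in the GTPase UMIs of suffix 3 was not tested.

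The remaining classes were sparse. Astrocyte-like cells, of which only 55, 85 and 147 barcodes passed the gate, had 10, 19 and 36 GTPase UMIs, at 58.8, 65.9 and 52.3 CPM, and most were Gbp7, Irgm1 and Igtp. These 3 members gave 29 of the 36 UMIs in suffix 3. Igtp was at 11.6 CPM there against 0.161 in oligodendrocyte-like cells (72.1-fold, 19.3 to 327), from only 8 and 4 UMIs. That was the largest ratio of the 9 members. Gbp7 was 17.3-fold (7.92 to 35.7) and Irgm1 7.05-fold (3.03 to 14.6) higher. Neuroblast-like cells were at 10.9, 24.0 and 7.72 CPM with Irgm1 as the most counted member. Choroid plexus-like cells were at 42.5 and 32.0 CPM in suffix 1 and 2. In neutrophil-like cells of suffix 1, Gbp2 gave 145 of 289 GTPase UMIs and was present in 33.7% of barcodes (27.1 to 40.7) at a median depth of 3032 UMIs, and after thinning in 15.6%. The 10 highest of these 199 barcodes held 36.3% of the GTPase UMIs. Suffix 2 and 3 had only 46 and 24 neutrophil-like barcodes. With all 269 pooled, the sum of the 9 was 328 CPM (294 to 364) and Gbp2 was at 155 (132 to 181), both below suffix 1 alone.

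The pathway around the GTPases was described with 4 lists. The first held relatives, of which 10 of 13 symbols matched. Gbp8 and Gbp9 with Mx1 were called higher in T cell-like over oligodendrocyte-like cells of suffix 1 (3 of 3 tested, against 15.6% of all genes), and Gbp6, Gbp8, Gbp9 and Mx1 in suffix 2 (4 of 4, against 16%). Gbp9 was called higher in endothelium-like over oligodendrocyte-like cells (1 of 1 tested, against 19.3%). It was also called higher over microglia-like cells (1 of 2, against 16.2%), where Mx1 was called lower (12.5%). Mx1, an antiviral GTPase, was at 103, 142 and 34.6 CPM in microglia-like cells and at 0.158 in endothelium-like cells. The second list, the induction pathway of ligands, receptors, kinases and transcription factors, had 16 of 16 genes. In endothelium-like over oligodendrocyte-like cells 9 of 12 tested were called higher (19.3% of all genes tested), among them the receptor genes Ifngr1, Ifnar1 and Ifnar2 and the transcription factor genes Irf1, Irf7 and Irf9. Irf1 stood at 162 CPM in endothelium-like cells against 2.82. In microglia-like over oligodendrocyte-like cells 8 of 13, 9 of 14 and 10 of 15 were called higher (16.1%, 15.8% and 18.9%). Ifnb1, the interferon-beta gene, was at 2329, 2491 and 1287 CPM in microglia-like cells, and microglia-like barcodes with an Ifnb1 UMI held the 9 GTPases at 178, 219 and 192 CPM against 80.9, 122 and 130 in those without. The barcodes with Ifnb1 were also the deeper ones, at a median of 7969.5, 8507 and 6868 UMIs against 4731, 5479 and 5193, and the part of depth in this was not tested.

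The third list, 15 other interferon-stimulated genes, is given beside the GTPases. In microglia-like cells, 8 of 12 were called lower in suffix 3 than in suffix 1 (2.35% of all genes tested) and 11 of 13 lower than in suffix 2 (2.76%), among them Isg15, an interferon-induced ubiquitin-like protein, at 550 against 1171 and 2230 CPM, while the sum of the 9 GTPases was 176 against 157 and 204. After thinning to 1000 UMIs the sum in suffix 3 was 151, below the 157 of suffix 1. In endothelium-like over microglia-like cells of suffix 3, 2 of 12 were called higher (Usp18 and Oasl2, against 16.2% of all genes tested) and 6 lower (Isg15, Ifit1, Ifit2, Ifit3, Cxcl10 and B2m, against 12.5%), where 4 of 9 GTPases were higher. In oligodendrocyte-like cells, 6 of 7 were called lower in suffix 3 than in suffix 1 (0.65%) and 9 of 9 lower than in suffix 2 (0.986%). In precursor-like cells of suffix 2 over suffix 1, 8 of 12 were called higher (0.568%). The sum of 7 genes known to respond to type I interferon (Isg15, Ifit1, Ifit2, Ifit3, Rsad2, Usp18 and Oasl2) was 278 CPM in endothelium-like cells and 3752, 5801 and 1547 in microglia-like cells. For each CPM of these 7 genes there were 1.27 CPM of the GTPases in endothelium-like cells. The value was 0.283 and 0.233 in T cell-like cells of suffix 1 and 2, and 0.0419, 0.0351 and 0.114 in microglia-like cells. In choroid plexus-like cells of suffix 1 and 2 it was 1.05 and 0.495. In the library of suffix 3 the value was 2.4 in astrocyte-like, 0.714 in precursor-like, 0.712 in mural cell-like, 0.478 in neuroblast-like and 0.308 in oligodendrocyte-like cells. Each class present in all 3 libraries had its highest value there. These values have no interval. Microglia-like cells held the most CPM of the 7 genes in each library, and RNA carried from them was computed for the GTPases but not for the 7 genes. C1qa UMIs in oligodendrocyte-like barcodes were also fewest in suffix 3, at 0.259 each against 0.937 and 1.16. The part of carried RNA in these values, and in their rise in suffix 3, was not tested. Those of astrocyte-like and precursor-like cells of suffix 3 rest on only 36 and 10 GTPase UMIs, with the 7 genes at 21.8 and 51.4 CPM. The fourth list, 6 partners in vacuole and inflammasome defence, included Casp4, the caspase gene that senses lipopolysaccharide: it was at 84.1, 93.0 and 241 CPM in microglia-like cells. Casp4 was the 1 of 6 tested that was called higher in suffix 3 over suffix 1 (6.61% of all genes tested) and over suffix 2 (8.48%). None was called lower (2.35% and 2.76%). Gabarapl2, an autophagy adaptor gene, was the 1 of 6 called lower in microglia-like than in oligodendrocyte-like cells in all 3 libraries (28.9%, 29.8% and 21.8% of all genes tested). In each library 2 of 6 were called higher (16.1%, 15.8% and 18.9%).

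**Figure D5:**
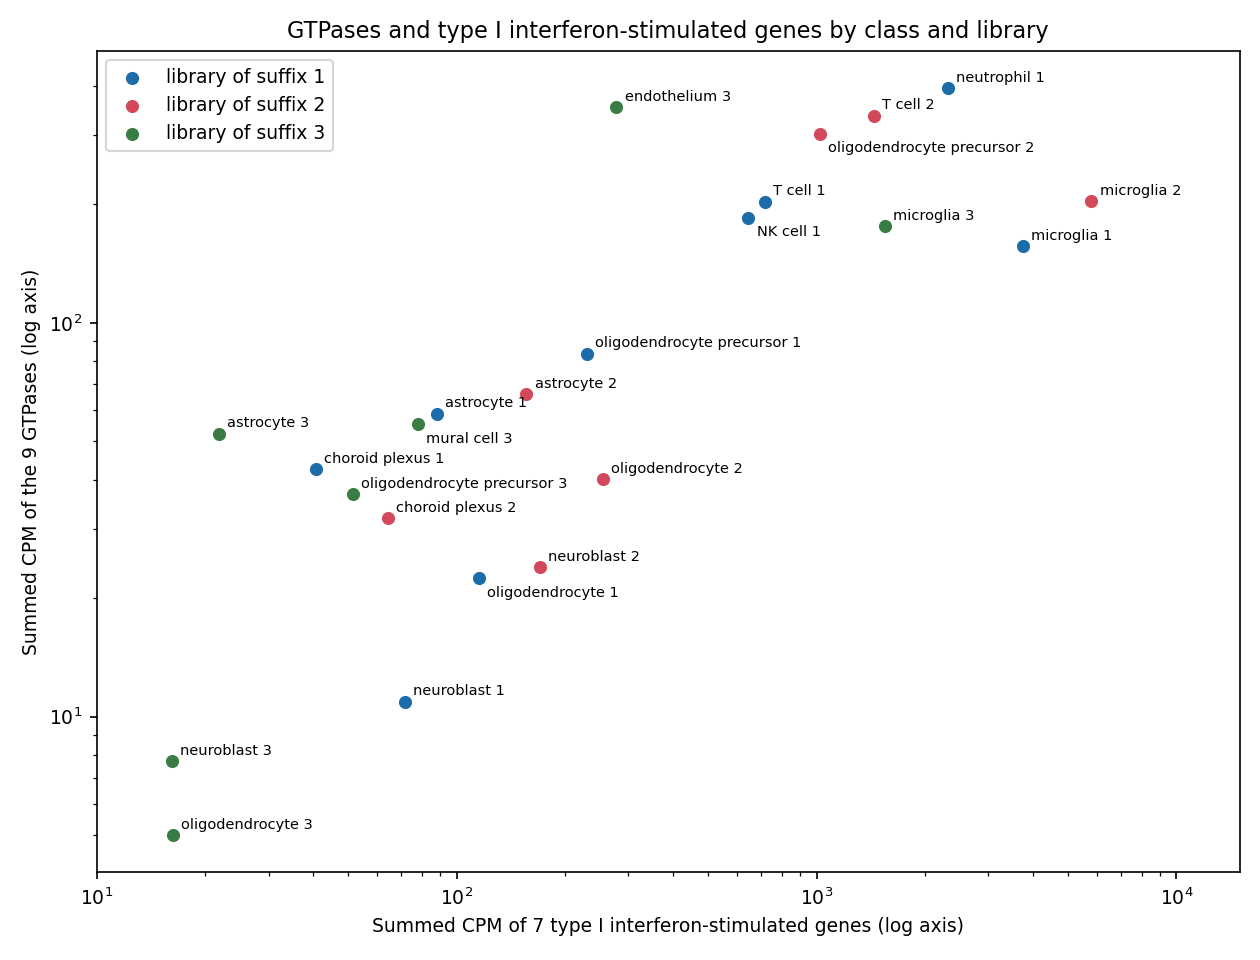
Summed CPM of the 9 GTPases against summed CPM of 7 type I interferon-stimulated genes in the 23 groups of class and library, both on log axes, with points colored by library suffix and labelled by class and suffix. Endothelium-like cells of suffix 3 lie at 353 CPM of GTPases for 278 CPM of the 7 genes, whereas microglia-like cells of suffix 2 lie at 204 for 5801.

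Across the 23 groups, which share libraries, depth and free RNA and include several groups with few UMIs, the pairs of members had Pearson correlations of log2(CPM + 10) from 0.301 to 0.907, with a median of 0.656 over 36 pairs. Of 9391 genes, those whose level was most like the sum of the 9 were Ddx58 (r = 0.926), which encodes the RNA sensor RIG-I, Dtx3l (0.923), Rnf213 (0.918), Irf9 (0.912), Samd9l (0.902), Parp9 (0.899) and the class I antigen presentation genes H2-K1 (0.884), H2-T22 (0.874), Tap1 (0.872) and H2-D1 (0.870). The nearest genes differed between members. Gbp4 was most like Gimap5 (0.970), Gimap9 (0.964) and Gimap1 (0.954), a family of lymphocyte GTPases. Gbp5 was most like Gsdmd (0.944), the gene of the pore-forming protein gasdermin D, then Lgals9 and Tgfb1. Gbp2 was most like Gch1 (0.945), Pmaip1 and Nfkbia. Gbp7, Igtp and Gbp3 were near each other: Gbp7 with Igtp at 0.907 and with Gbp3 at 0.899. Irgm1 was most like Cmpk2 (0.806), Irgm2 like Trim56 (0.797) and Iigp1 like Ube2l6 (0.715).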

How the data were processed

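Single-cell RNA was prepared with the 10x Genomics 3′ chemistry from 3 libraries of 8 pooled mice each. The authors mapped reads to mm10 with Cell Ranger 3.1.0 and STAR, down-sampled them across libraries, and deposited raw UMI counts in 1 matrix. Per the methods, the study itself filtered at 2 SD of UMI and gene numbers and used Seurat 3.1.1, which the deposited counts precede. The libraries held 72498768, 105957232 and 69270514 UMIs. From the counts, classes were gated by fixed marker lists, UMIs were summed by class and library, and CPM, Poisson and Clopper-Pearson 95% intervals and (CPM + 10) ratios were computed with Python 3.11.15, numpy 2.4.6 and scipy 1.17.1. Intervals cover counting error only. No doublet caller was run. Barcodes that passed more than 1 gate were left out, which removes doublets between classes and also cells with markers of both. The fold and thinning steps were tested on simulated data. Named genes were the 9 members, the 4 fixed lists, and the genes most alike in pattern, which were the 10 with the highest correlation to the sum and the 3 for each member. The members, lists and classes were chosen with earlier results of these data known. Suffixes are not paired with conditions in the sources used here, which leaves a single pooled sample without replicates and no basis for a test. The values of 1 gene of the lists are not reported here. Sequences come from RefSeq (GRCm38.p6), and gene models from GENCODE M21.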

Additional observations from a re-analysis of the deposited data

Results flagged for a closer look

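The GTPases were also present in barcodes that no comparison used, above what 3 counts in the same barcodes would give. The sum of the 9 was 166 CPM in the 3062 barcodes that passed more than 1 gate and 157 CPM in the 2396 that passed none. It was 138 CPM in the 2862 barcodes under 1000 UMIs and 18.9 CPM in the 1124 with over 30% mitochondrial UMIs. Among classes with under 50 barcodes in each library, it was 99.2 CPM in 34 border macrophage-like barcodes (11 UMIs, of which 6 were Gbp7), 63.4 in 43 monocyte or dendritic cell-like barcodes, 183 in 13 ependymal cell-like barcodes (17 UMIs), 75.1 in 19 fibroblast-like barcodes (8 UMIs), 55.2 in 26 B cell-like barcodes (5 UMIs, of which 3 were Gbp4) and 14.1 in 66 neuron-like barcodes. The leading genes of the neuron-like barcodes held none of the markers of that gate.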

How the results depend on the processing

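No paired analysis was possible because each condition has 1 library and the suffixes are not paired with conditions. Several orders of groups turned. Among them, microglia-like cells of suffix 3 (151) fell below those of suffix 1 (157) after thinning. With mixed barcodes assigned, neutrophil-like cells (315) fell below endothelium-like cells (327) and T cell-like cells of suffix 2 (337). In that setting mural cell-like cells (201) also rose above microglia-like cells of suffix 3 (166). The 23 levels were recomputed under 7 settings, and all 23 stayed within their interval with a minimum of 500 or 2000 UMIs or a mitochondrial limit of 10%. Values that moved are given in CPM, and the causes were not tested. With mixed barcodes assigned, microglia-like cells of suffix 3 moved to 166, neutrophil-like to 315, oligodendrocyte-like of suffix 1, 2 and 3 to 28.4, 45.7 and 8.57, neuroblast-like of suffix 1 to 15.4, endothelium-like to 327 and mural cell-like to 201. After thinning, microglia-like of suffix 3 stood at 151, T cell-like at 217 and 379, oligodendrocyte-like of suffix 2 at 31.4, precursor-like of suffix 1 and 2 at 64.5 and 263, neuroblast-like at 7.23, 35.0 and 4.64, endothelium-like at 380 and choroid plexus-like at 30.9 and 0. With the filter of the study on UMIs and genes, microglia-like of suffix 1 moved to 168, precursor-like of suffix 1 and 2 to 68.7 and 241 and choroid plexus-like of suffix 1 to 31.4. With the stricter gate, NK cell-like moved to 145, oligodendrocyte-like of suffix 3 to 6.02, precursor-like of suffix 2 to 254 and mural cell-like to 88.9. With libraries pooled and each left out in turn, microglia-like cells ranged from 162 to 199, T cell-like from 203 to 336, oligodendrocyte-like from 11.7 to 32.4 and precursor-like from 76.0 to 234.

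Counts of called members depended most on the CPM added and on the fold. The share of all genes called was not computed under these settings. A count that moved can therefore not be told from a shift of all genes. With 50 CPM added, the counts over oligodendrocyte-like cells were 0, 1 and 0 for microglia-like, 3 for endothelium-like, 0 for astrocyte-like (suffix 1) and 0 and 2 for T cell-like cells. They were 0 for endothelium-like over microglia-like cells, 0 for both comparisons of microglia-like cells of suffix 3, and 1, 0 and 2 for precursor-like cells (suffix 2 over 1, 3 over 1 and 3 over 2). With a fold of 3, microglia-like of suffix 1 and 3 had 2 each, astrocyte-like of suffix 1 had 0, T cell-like of suffix 1 had 3, endothelium-like over microglia-like 2, both comparisons of microglia-like suffix 3 had 0, and precursor-like 1 (suffix 2 over 1) and 0 (3 over 1). With a fold of 1.5, microglia-like of suffix 2 had 6, astrocyte-like of suffix 1 and 2 had 2 each, microglia-like suffix 3 over 2 had 3 and T cell-like suffix 2 over 1 had 4. With 1 CPM added, the counts were 6 for microglia-like of suffix 2, 2 and 2 for astrocyte-like of suffix 1 and 2, and 2 for T cell-like suffix 2 over 1. After thinning, they were 5 for microglia-like of suffix 2, 2, 1 and 1 for astrocyte-like cells, 0 and 0 for microglia-like suffix 3, 1 for T cell-like suffix 2 over 1 and 0 for precursor-like suffix 3 over 1. Astrocyte-like cells of suffix 1 and 2 had 2 and 1 with a minimum of 2000 UMIs and with the filter of the study, and 2, 1 and 1 (suffix 3) with the mitochondrial limit of 10%, and 1 each in suffix 2 and 3 with the stricter gate. T cell-like suffix 2 over 1 had 1 with a minimum of 2000 UMIs and with the filter of the study, under which microglia-like and precursor-like suffix 3 over 1 had 0. The stricter gate left 1 for precursor-like suffix 2 over 1, and assigning mixed barcodes left 0 for microglia-like suffix 3 over 1. With no filter on low values, astrocyte-like of suffix 3 had 2, microglia-like suffix 3 over 2 had 2 and precursor-like suffix 3 over 1 had 3.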

Other observations

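Mixed barcodes differed by the gates they passed. The 183 barcodes with T cell and monocyte or dendritic gates alone stood at 384 CPM (348 to 423) of the 9 GTPases, with 100 Gbp7 and 81 Gbp4 UMIs. The 164 with border macrophage and microglia gates stood at 161 CPM (140 to 184), with 67 Gbp7 and 28 Gbp5 UMIs, and the 972 with oligodendrocyte and microglia gates at 119 CPM (113 to 125), with 381 Gbp5 UMIs and 8 Gbp4 UMIs.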
